A study of Mus musculus with 8 samples.

Results

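DNA methylation is written, kept and removed by a small set of enzymes, and their transcripts are described here in normal haematopoietic stem cells (HSCs), chronic myelogenous leukaemia (CML) stem cells and committed progenitors of mouse bone marrow. The genes were chosen by symbol: Dnmt1, Dnmt3a, Dnmt3b, Tet1, Tet2, Tet3, Uhrf1, Idh1 and Idh2, 9 genes in all. Tet3 was not analysed here. The other 8 were taken from a table of 20207 genes, and all 8 were among the 12561 genes with a summed value above 1 RPKM (a read density scaled for gene length and library size). The rule is by symbol alone, although the genes were chosen with earlier results of these data known.

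The 8 libraries came from 2 genotypes. CML-affected mice carried Tal1-tTA and TRE-BCR-ABL1, so that the tetracycline transactivator, driven by Tal1 regulatory sequence, switched on BCR-ABL1 once doxycycline was withdrawn. The study describes the healthy controls as littermates with Tal1-tTA alone. Each genotype was sorted into KLS- progenitors (cKit+Lineage-Sca-1-) and, within the cKit+Lineage-Sca-1+ (KLS+) cells lacking CD48 and CD135, into long-term (LT) stem cells with CD150 and short-term (ST) stem cells without it. The LT populations had 2 libraries each (LT-HSC replicates 1 and 2, LT-CML replicates 1 and 2) and the ST and KLS- populations 1 library per genotype. LT-HSC replicate 2 is labelled 6 months old and the other normal libraries 2 months old, and no age is given in the labels of the CML libraries. For the sorted transgenic mice and littermates, the study's methods give an age range in weeks that is below the older label. The labels name the strain as C57BL/6 throughout, whereas the study describes the transgenic mice on an FVB/N background. The study also took healthy C57BL/6 mice at a younger and an older age for metabolite measurements. Whether such mice gave any normal library is not stated. If they did, strain and CML status could not be told apart. No source states how many mice gave each library or whether animals were pooled. Every p-value below therefore measures only the spread between these libraries. The 2 LT-HSC libraries differ in labelled age and in Ddx3y, a Y-linked gene (0 and 31.0 RPKM in replicates 1 and 2). The 2 LT-CML libraries differ in Ddx3y as well (0.0625 and 17.5 RPKM). Their spread is thus not technical alone, and the part of sex or age in it was not tested.

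Dnmt1, the maintenance methyltransferase, copies CpG methylation onto the new DNA strand after replication, and Uhrf1 brings it there by binding hemimethylated sites. Dnmt3a and Dnmt3b methylate unmodified sites de novo. The Tet dioxygenases oxidize 5-methylcytosine with 2-oxoglutarate as co-substrate, which the isocitrate dehydrogenases Idh1 (cytosolic) and Idh2 (mitochondrial) can supply. Dnmt3a, Tet2, Idh1 and Idh2 are known in haematology as genes mutated in myeloid malignancies and clonal haematopoiesis.

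The depth of the libraries, estimated from the step of 1 read in low RPKM values, was 17.8 to 23.9 M reads. The lowest member value, Tet1 in CML KLS- progenitors, rested on an estimated 436 reads, a counting error of 4.79%, which covers read sampling only and not the amplification of the cDNA. Of the sorting markers, Ly6a and Slamf1 followed the gates: Ly6a, which encodes Sca-1, was at most 11.7 RPKM in the KLS- libraries and at least 72.4 in the stem libraries, and Slamf1, which encodes CD150, was 10.7 to 35.5 RPKM in LT and at most 2.87 in ST libraries. Flt3, which encodes CD135, was at 61.6 and 71.6 RPKM in the ST libraries, and Cd48 at 41.8 and 45.1 in the ST and 16.8 and 29.5 in the LT-CML libraries, although these gates exclude both proteins. The summed RPKM of 8 neutrophil genes was 16.0 to 4011 in normal stem, 232 to 1028 in CML stem and 121 to 622 in KLS- libraries, highest in LT-HSC replicate 2, with S100a8 alone reaching 1802 RPKM. Ddx3y, a Y-linked gene, was at 31.0 RPKM in LT-HSC replicate 2 and 17.5 in LT-CML replicate 2 and at most 0.0625 in the other libraries. The part of these markers in any difference below was not tested.

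The clearest differences lay between KLS- progenitors and stem cells. In a fit of all 8 libraries with terms for CML status and compartment (limma on log2(RPKM + 1), Benjamini-Hochberg over all genes, threshold 0.05), 7 of 8 genes passed the threshold: Idh1, Uhrf1, Dnmt1 and Idh2 were higher in KLS- cells, and Tet1, Dnmt3b and Dnmt3a were lower. Without the CML KLS- library, 3 passed (Idh1, Uhrf1 and Tet1) and the genes called in all fell from 6123 to 3178; without LT-HSC replicate 2 and LT-CML replicate 2 together, 7 passed. The contrast sets KLS- cells against the average of the LT and ST terms, so LT and ST cells weigh alike in it. The stem means printed below weigh each library alike. For genes lower in ST than in LT cells, such as Uhrf1, this weighting enlarges the fitted difference. The contrast was broad, since 48.7% of all genes tested passed it, 22.2% higher and 26.5% lower. Between CML and normal stem cells none of the 8 passed, against 2.34% of all genes. In these bulk libraries, fewer cells of a type and less RNA per cell cannot be told apart.

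**Figure D1:**
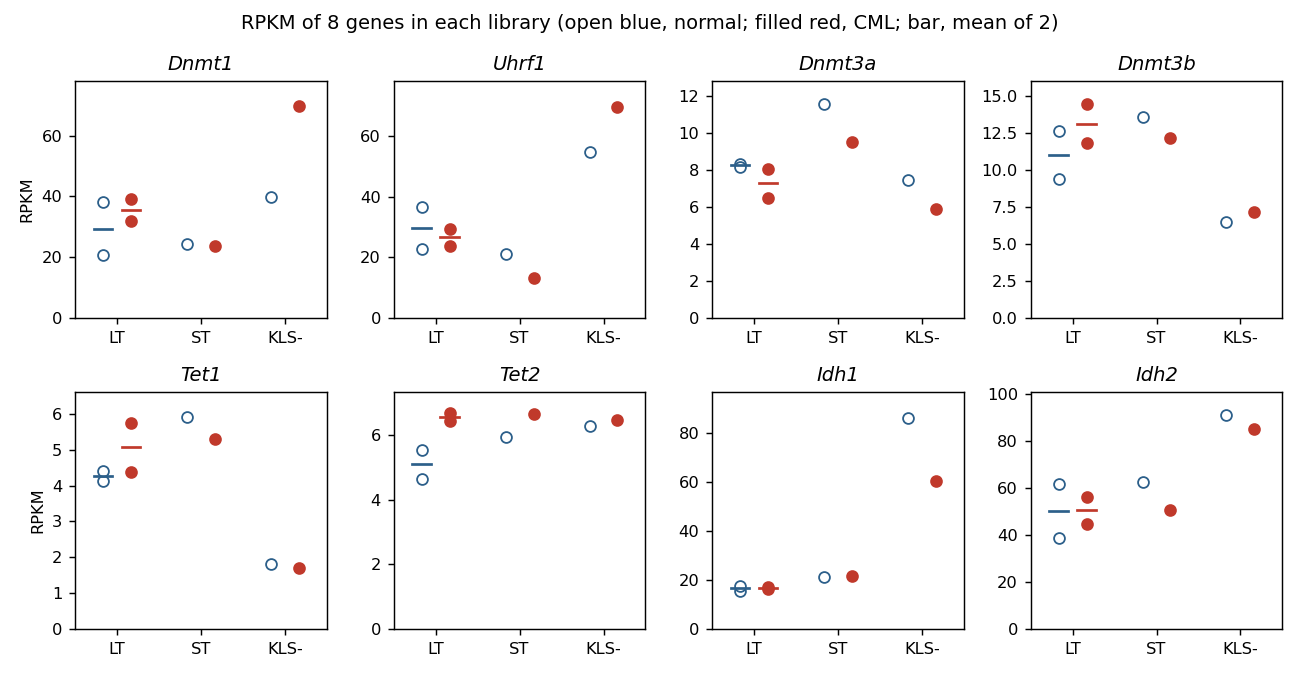
RPKM of each gene in the 8 libraries, with normal populations as open blue points, CML populations as filled red points and a bar at the mean of the 2 LT replicates; every vertical axis starts at 0. The KLS- points of Idh1 (60.2 and 86.0) stand above, and those of Tet1 (1.70 and 1.80) below, all stem points of the same gene.

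Both genes of the maintenance pair were higher in KLS- progenitors. Dnmt1 (NCBI Build 37, mm9, chr9:20711650-20757317, minus strand, 39 exons) was at 38.1 and 20.8 RPKM in LT-HSC replicates 1 and 2, 24.4 in ST-HSCs and 40.0 in normal KLS- progenitors, and at 39.1 and 32.1 in LT-CML replicates 1 and 2, 23.8 in ST-CML stem cells and 69.7 in CML KLS- progenitors. The CML KLS- library was the highest, whereas the normal KLS- library exceeded LT-CML replicate 1 by under 1 RPKM, so that the groups only just did not overlap. The mean was 54.8 ± 21.0 RPKM in KLS- cells (SD, n = 2, 1 library of each genotype) and 29.7 ± 7.85 in stem cells (SD, n = 6), a 1.85-fold difference of means. The fitted difference was 0.91 on the log2(RPKM + 1) scale (SE 0.24, limma adjusted p = 0.0118). It rested on the CML KLS- library: without it the value was 0.62 and the adjusted p 0.187.

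Uhrf1 (chr17:56442744-56462909, plus strand, 17 exons), the hemimethylated-DNA reader, was at 36.4, 22.8 and 21.3 RPKM in LT-HSC replicates 1 and 2 and ST-HSCs, at 29.3, 23.8 and 13.2 in LT-CML replicates 1 and 2 and ST-CML stem cells, and at 54.6 and 69.4 in normal and CML KLS- progenitors. Both KLS- libraries were above every stem library, and ST-CML stem cells were lowest. Its KLS- mean of 62.0 ± 10.5 RPKM (SD, n = 2) was 2.53-fold the stem mean of 24.5 ± 7.85 (SD, n = 6), with a fitted difference of 1.47 (SE 0.23, limma adjusted p = 0.000983). The exact two-sided permutation p for 2 against 6 libraries was 0.0714. This is the smallest that 2 against 6 allows, and every gene with separated groups reaches it.

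Start-site windows of this pair are shown because both act in maintenance methylation and both were higher in KLS- cells. The sequences are those of RefSeq (GRCm38.p6 table), from 250 bases before to 50 after an annotated start, each found once by exact match in NCBI Build 37; capitals mark CCAAT on either strand (read as ATTGG on the other) and TTTCCCGC or TTTGGCGC, a pair of E2F-type letter strings searched on both strands. The Dnmt1 window, whose RefSeq start lies 250 bases downstream of the GENCODE start, so that the whole window is inside the GENCODE transcript, is at chr9:20757018-20757317 (minus strand) and the Uhrf1 window at chr17:56443486-56443785 (plus strand).
Dnmt1 window: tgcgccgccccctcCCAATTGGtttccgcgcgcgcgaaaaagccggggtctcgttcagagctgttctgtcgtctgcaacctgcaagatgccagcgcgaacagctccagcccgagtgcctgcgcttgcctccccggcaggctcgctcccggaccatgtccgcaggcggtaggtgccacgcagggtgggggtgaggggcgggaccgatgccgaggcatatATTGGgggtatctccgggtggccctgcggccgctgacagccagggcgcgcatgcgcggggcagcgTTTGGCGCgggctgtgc
Uhrf1 window: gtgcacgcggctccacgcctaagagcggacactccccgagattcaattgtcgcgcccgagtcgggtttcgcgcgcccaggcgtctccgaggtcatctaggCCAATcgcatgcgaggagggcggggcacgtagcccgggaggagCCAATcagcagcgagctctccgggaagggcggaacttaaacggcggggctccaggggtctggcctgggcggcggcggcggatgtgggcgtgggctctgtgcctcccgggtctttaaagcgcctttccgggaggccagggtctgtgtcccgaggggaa

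Each of these windows held 33 CpG, more than 91.4% of the 32851 windows in the table, whose median was 7. They are the most CpG-dense of each gene: the 2 other Dnmt1 windows held 12 and 2 CpG and the other Uhrf1 window 12. TTTGGCGC occurred in the printed Dnmt1 window, with its first letter 33 bases downstream of the RefSeq start. Neither searched string occurred in the 2 other Dnmt1 windows or in either Uhrf1 window. Other spellings were not searched. TTTCGCGC stands in lower case in the printed Uhrf1 window and, on the other strand, in the printed Dnmt1 window. Of all windows, 1.56% held a searched string. Counted per gene over any of its windows, 486 of 27025 genes held one, and 7 of the 20 proliferation genes with a window. CCAAT was found 3 times in the Dnmt1 and 2 times in the Uhrf1 sequence (overlapping matches on the 2 strands counted), and at least once in 37.4% of all windows. These are matches of letters and not measured sites.

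Genes of DNA replication and mitosis moved alongside. The 24 proliferation genes listed for this comparison (among them Mki67, Top2a and the Mcm helicase subunits) summed to 1091 and 677 RPKM in LT-HSC replicates 1 and 2 and 597 in ST-HSCs, to 832 and 919 in LT-CML replicates 1 and 2 and 410 in ST-CML stem cells, and to 1688 and 1805 in normal and CML KLS- progenitors. All 24 passed the threshold as higher in KLS- cells, with a median difference of 1.31 against -0.08 over all genes tested. The ST-CML library was lowest for Uhrf1 and for this sum, and the CML KLS- library highest for both; the part of proliferation in the Dnmt1 and Uhrf1 differences was not tested. Mki67, a marker of cycling cells, differed less between compartments than the sum, at 25.8 and 29.9 RPKM in KLS- against 18.7 to 28.4 in LT libraries and 5.04 and 9.20 in ST libraries.

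**Figure D2:**
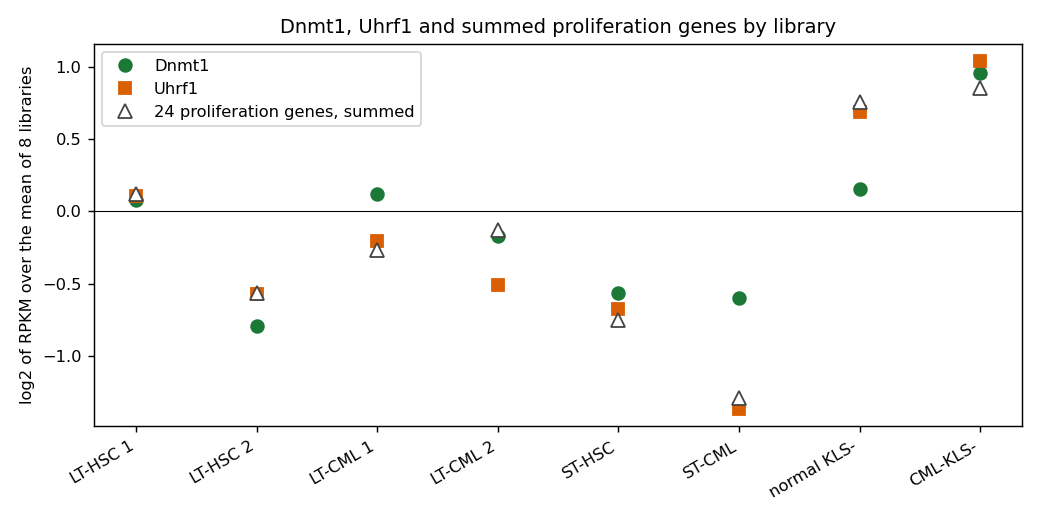
log2 of the RPKM of Dnmt1, Uhrf1 and the summed 24 proliferation genes over their own mean of the 8 libraries, by library. The lowest summed value (410 RPKM) and the lowest Uhrf1 value (13.2 RPKM) fall in the same ST-CML library, and the highest of all 3 measures fall in CML KLS- progenitors.

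The de novo methyltransferases were lower in KLS- progenitors. Dnmt3b (chr2:153475186-153513466, plus strand, 24 exons) was at 12.6, 9.38 and 13.6 RPKM in LT-HSC replicates 1 and 2 and ST-HSCs, at 14.4, 11.8 and 12.2 in LT-CML replicates 1 and 2 and ST-CML stem cells, and at 6.51 and 7.17 in normal and CML KLS- progenitors. The groups did not overlap. The stem mean of 12.3 ± 1.73 RPKM (SD, n = 6) was 1.80-fold the KLS- mean of 6.84 ± 0.465 (SD, n = 2), and the fitted difference was -0.77 (SE 0.16, limma adjusted p = 0.00435). Without the CML KLS- library the estimate was -0.78, with an adjusted p of 0.0507.

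Dnmt3a (chr12:3806007-3914443, plus strand), the de novo enzyme best known in HSCs, was at 8.35, 8.18 and 11.6 RPKM in LT-HSC replicates 1 and 2 and ST-HSCs, at 8.08, 6.53 and 9.56 in LT-CML replicates 1 and 2 and ST-CML stem cells, and at 7.46 and 5.93 in normal and CML KLS- progenitors. Normal KLS- progenitors lay above LT-CML replicate 2, so the groups overlapped. The fitted difference was -0.39 (SE 0.13, limma adjusted p = 0.0347), and it no longer passed the threshold after quantile normalization (-0.32, adjusted p = 0.0535) or when any 1 of 5 libraries was left out. Its annotated exons share 133 bases with the antisense gene Gm10485, and whether counting used strand is not given in the sources used here.

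Of the Tet genes, Tet1 changed and Tet2 did not pass the test. Tet1 (chr10:62267318-62361866, minus strand, 13 exons) was at 4.14, 4.42 and 5.92 RPKM in LT-HSC replicates 1 and 2 and ST-HSCs, at 5.74, 4.38 and 5.29 in LT-CML replicates 1 and 2 and ST-CML stem cells, and at 1.80 and 1.70 in normal and CML KLS- progenitors. Both KLS- libraries were far below the lowest stem library. The stem mean of 4.98 ± 0.765 RPKM (SD, n = 6) was 2.85-fold the KLS- mean of 1.75 ± 0.0672 (SD, n = 2), and the fitted difference was -1.15 (SE 0.15, limma adjusted p = 0.000450), and at such low RPKM the added 1 shrinks the fitted value.

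Tet2 (chr3:133126643-133207354, minus strand, 11 exons) varied least of the 8 genes, 1.44-fold from the lowest to the highest library. It was at 4.64, 5.55 and 5.93 RPKM in LT-HSC replicates 1 and 2 and ST-HSCs, at 6.70, 6.43 and 6.65 in LT-CML replicates 1 and 2 and ST-CML stem cells, and at 6.28 and 6.47 in normal and CML KLS- progenitors. The KLS- libraries lay inside the stem range, with a fitted difference of 0.07 (95% interval -0.24 to 0.38, limma adjusted p = 0.683) whose sign turned under upper-quartile scaling (-0.02).

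Of all pairs among the 8 genes, Dnmt3b and Tet1 were the most alike over the libraries in centred log2(RPKM + 1). Their root mean square difference was 0.21 over 8 libraries. The added 1 shrinks changes of low genes such as Tet1, and pairs were not ranked on another scale. The folds of stem over KLS- means were 2.85 for Tet1 and 1.80 for Dnmt3b. The points share their libraries, and the number is a description. Their windows are shown for that reason, the Dnmt3b window at chr2:153474935-153475234 (plus strand) and the Tet1 window at chr10:62350023-62350322 (minus strand), with the same letters searched; the Tet1 window lies 7310 bases from the nearest annotated start of the files' build.
Dnmt3b window: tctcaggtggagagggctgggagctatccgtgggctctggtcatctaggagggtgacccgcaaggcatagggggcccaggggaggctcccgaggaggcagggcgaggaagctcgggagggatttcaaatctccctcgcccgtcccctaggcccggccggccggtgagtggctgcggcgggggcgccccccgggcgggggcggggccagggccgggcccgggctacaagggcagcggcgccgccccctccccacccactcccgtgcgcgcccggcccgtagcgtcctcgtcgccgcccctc
Tet1 window: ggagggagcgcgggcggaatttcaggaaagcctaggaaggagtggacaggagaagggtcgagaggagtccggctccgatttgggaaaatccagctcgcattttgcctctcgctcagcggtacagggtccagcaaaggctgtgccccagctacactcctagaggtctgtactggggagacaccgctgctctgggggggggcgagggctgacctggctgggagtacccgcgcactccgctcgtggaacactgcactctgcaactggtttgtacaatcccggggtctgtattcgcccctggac

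Neither sequence held a capitalized match. The Dnmt3b window had 30 CpG and the Tet1 window 17. The most CpG-dense promoter of the 8 genes was that of Tet2, with 57 CpG, more than 99.8% of all windows.

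The largest difference of the 8 genes was that of Idh1 (chr1:65205190-65233053, minus strand, 9 exons). It was at 15.4, 17.6 and 21.2 RPKM in LT-HSC replicates 1 and 2 and ST-HSCs, at 17.2, 16.4 and 21.6 in LT-CML replicates 1 and 2 and ST-CML stem cells, and at 86.0 and 60.2 in normal and CML KLS- progenitors. The stem libraries lay close together, and the lower KLS- library was still well above the highest of them. The KLS- mean of 73.1 ± 18.2 RPKM (SD, n = 2) was 4.01-fold the stem mean of 18.2 ± 2.56 (SD, n = 6), and the fitted difference was 1.88 (SE 0.15, limma adjusted p = 4.24e-05). Its window at chr1:65233004-65233303 (minus strand) is shown for the gene with the largest difference; it held 23 CpG and a single CCAAT.
Idh1 window: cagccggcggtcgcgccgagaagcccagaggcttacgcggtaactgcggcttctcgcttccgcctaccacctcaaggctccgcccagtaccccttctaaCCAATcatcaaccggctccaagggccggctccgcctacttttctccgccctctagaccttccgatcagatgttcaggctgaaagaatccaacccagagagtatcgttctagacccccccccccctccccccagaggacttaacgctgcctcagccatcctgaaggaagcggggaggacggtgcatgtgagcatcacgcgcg

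Idh2 (chr7:87239732-87260278, minus strand, 11 exons) had the highest level of the 8 genes in every library, per length. It was at 61.8, 38.9 and 62.7 RPKM in LT-HSC replicates 1 and 2 and ST-HSCs, at 56.4, 44.8 and 50.6 in LT-CML replicates 1 and 2 and ST-CML stem cells, and at 91.0 and 85.1 in normal and CML KLS- progenitors. The groups did not overlap, and the KLS- mean of 88.1 ± 4.22 RPKM (SD, n = 2) was 1.68-fold the stem mean of 52.5 ± 9.54 (SD, n = 6). The fitted difference of 0.72 (SE 0.19, limma adjusted p = 0.0117) was 0.29 after quantile normalization (adjusted p = 0.143), and no longer passed without the normal or the CML KLS- library (adjusted p = 0.0913 and 0.0916). The KLS- libraries had a larger summed RPKM over all genes (444650 and 465695) than the stem libraries (324114 to 372849).

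**Figure D3:**
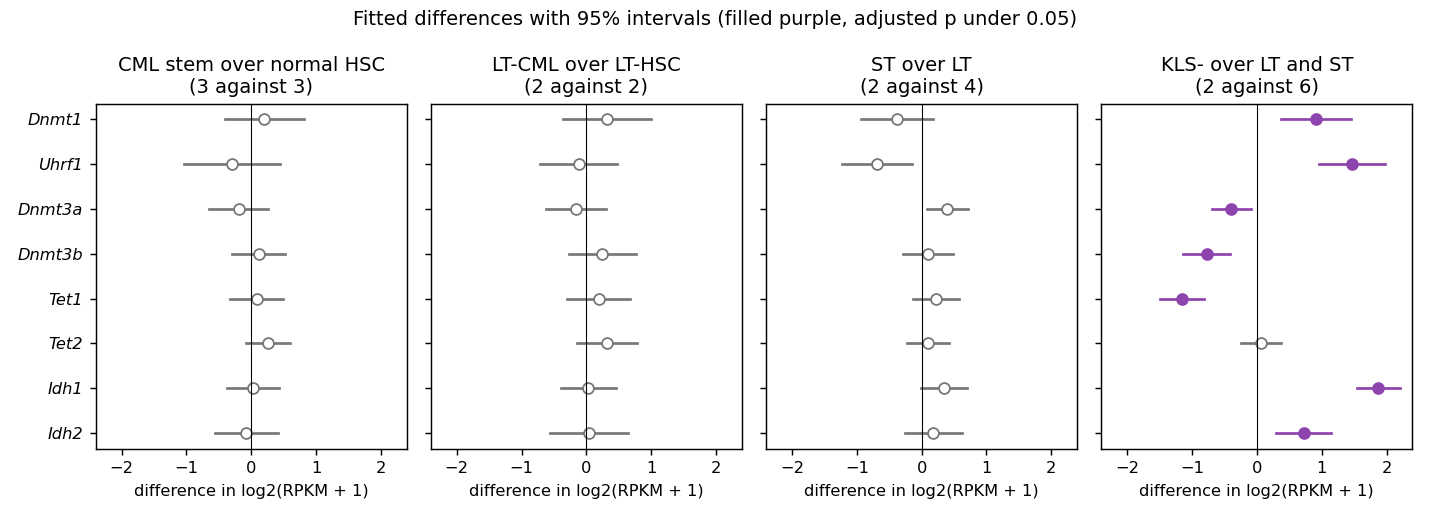
Fitted differences in log2(RPKM + 1) of the 8 genes with 95% intervals, for CML against normal stem cells, LT-CML against LT-HSCs, ST against LT and KLS- against LT and ST; filled purple marks an adjusted p under 0.05. Filled points occur only in the KLS- panel, from -1.15 (Tet1) to 1.88 (Idh1).

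Of the 8 genes, 6 had KLS- and stem libraries that did not overlap, where 49.6% of all genes did. Within families the balance differed between compartments, as ratios of RPKM within a library. Tet1 over Tet2 was 0.682 to 0.998 in stem and 0.263 and 0.286 in KLS- libraries, and Idh1 over Idh2 was 0.249 to 0.452 in stem and 0.708 and 0.944 in KLS- libraries, without overlap in either. Dnmt3b over Dnmt3a (1.15 to 1.81 in stem, 0.873 and 1.21 in KLS-) and Uhrf1 over Dnmt1 (0.554 to 1.10 in stem, 0.995 and 1.37 in KLS-) overlapped. Uhrf1 over Dnmt1 was 0.956, 1.10 and 0.872 in LT-HSC replicates 1 and 2 and ST-HSCs and 0.75, 0.743 and 0.554 in LT-CML replicates 1 and 2 and ST-CML stem cells, lower in every CML than in every normal stem library, which was noticed after the values were seen. How often ratios of other gene pairs separate in these ways was not computed. Of single genes, 18.3% separated the CML from the normal stem libraries, and neither Uhrf1 nor Dnmt1 did. These ratios reuse the values above and were not tested.

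**Figure D4:**
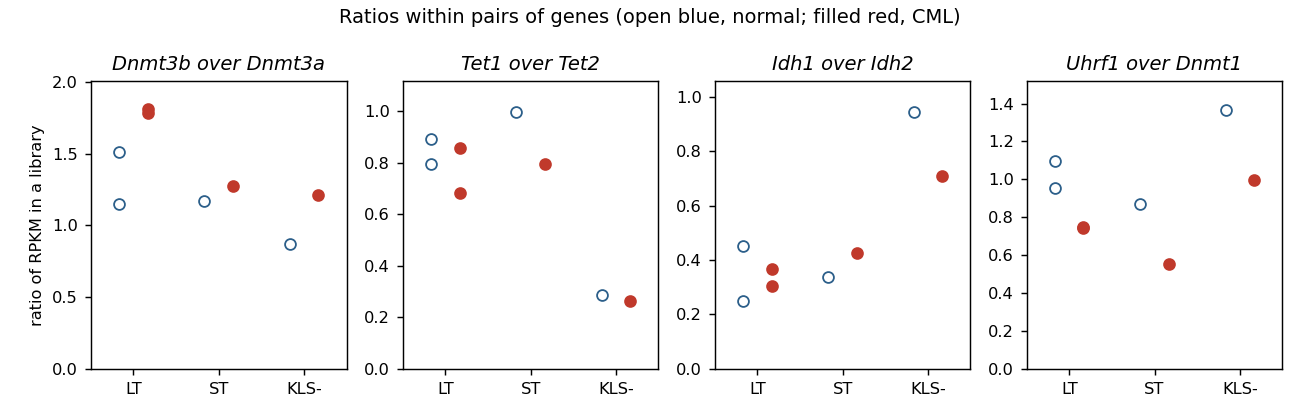
Ratios of RPKM within a library for Dnmt3b over Dnmt3a, Tet1 over Tet2, Idh1 over Idh2 and Uhrf1 over Dnmt1, with normal libraries as open blue and CML libraries as filled red points and axes from 0. The KLS- points of Tet1 over Tet2 (0.263 and 0.286) and of Idh1 over Idh2 (0.708 and 0.944) are outside the range of the stem points.

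The study used these libraries to look for genes that set CML stem cells apart from normal HSCs and from CML KLS- progenitors. For the DNA methylation genes, the 3 CML stem libraries and the 3 normal ones were close. None of the 8 passed the threshold (2.34% of all genes did), and none had an unadjusted p under 0.05 in limma (12.5% of all genes did). The fitted differences ran from -0.30 (Uhrf1, SE 0.32) to 0.26 (Tet2, SE 0.14), and the widest 95% interval was that of Uhrf1, -1.03 to 0.44. Tet2 was the only one whose groups did not overlap, with 6.59 ± 0.144 RPKM in CML and 5.37 ± 0.661 in normal stem cells (SD, n = 3 each; 1.23-fold, limma adjusted p = 0.540; exact permutation p = 0.1, the smallest that 3 against 3 allows), and 18.3% of all genes were separated in this way.

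Within LT cells alone (2 against 2, in a fit with a mean for each of the 6 populations), again none of the 8 passed, against 1.73% of all genes, and none had an unadjusted p under 0.05. Tet2 (difference 0.32, SE 0.20, limma adjusted p = 0.645) and Dnmt3a (-0.16, SE 0.20, adjusted p = 0.847) had groups without overlap, as had 40.5% of all genes. The 2 LT-HSC libraries differed more from each other in Dnmt1 (38.1 and 20.8 RPKM) than the LT-CML mean of 35.6 differed from the LT-HSC mean of 29.4. These 2 LT-HSC libraries also differ in labelled age, in Ddx3y and in neutrophil transcripts. Between KLS- progenitors the single libraries were furthest apart for Dnmt1, 1.74-fold higher in CML, and Idh1, 1.43-fold lower in CML, values without replicates.

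Whether the CML difference itself varied between KLS- and LT cells was tested as an interaction in the same fit, with the KLS- libraries assumed to vary like the LT replicates. No member passed (smallest limma adjusted p = 0.99996), and only 3 genes in all did, 0.0239% (Ifi202b, 3.12; Mst1r, 2.48; Pyhin1, -3.62, named after their values were seen); none of the 8 had an unadjusted p under 0.05, where 3.76% of all genes did. The largest member estimate was that of Idh1, -0.53 (SE 0.31, 95% interval -1.27 to 0.20). On simulated data this test recovered 0.0% of changes of 1 and 92.0% of changes of 2 on the log2 scale. Of the calls of this test on those data, 100% and 11.1% were false. Sizes between these were not simulated, and the simulated libraries had no other differences, so the smallest interaction detectable here is not known.

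Between ST and LT stem cells, in the additive fit, none of the 8 passed the adjusted threshold, where 4.87% of all genes did, and 2 had an unadjusted p under 0.05, where 19.6% did. Uhrf1 was at 21.3 and 13.2 RPKM in the ST libraries and 22.8 to 36.4 in the LT libraries (difference -0.69, SE 0.24, limma adjusted p = 0.148). Dnmt3a was at 11.6 and 9.56 RPKM in ST and 6.53 to 8.35 in LT libraries (difference 0.40, SE 0.14, adjusted p = 0.149). These and Idh1 (21.2 and 21.6 in ST, 15.4 to 17.6 in LT; difference 0.34, SE 0.15, adjusted p = 0.259) had groups without overlap, as had 24.2% of all genes. Of the 24 proliferation genes, 12 passed as lower in ST and none as higher, with a median of -0.89 against -0.01 over all genes, a count that fell to 4 without the ST-CML library and 6 without the ST-HSC library.

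The other genes of the pathway were followed by lists. In the KLS- contrast the list named for isocitrate and 2-oxoglutarate stood 14 higher, 0 lower and 4 not past the threshold of 18 tested. Its median was 0.75, where 22.2% of all genes were higher and 26.5% lower and their median was -0.08. The list also holds other citric acid cycle genes, Cs, Fh1 and Sdha, Sdhb, Sdhc and Sdhd, all among the 14 higher. The 14 include Got2, the mitochondrial aspartate aminotransferase (1.32, SE 0.18, limma adjusted p = 0.000604). The methyl donor cycle, which regenerates S-adenosylmethionine and carries folate one-carbon units, stood 6 higher and 0 lower of 12 tested (median 0.40). Its largest were the folate-cycle enzymes Mthfd2 (1.93, SE 0.25) and Mthfd1 (1.54, SE 0.27), Ahcy, which clears S-adenosylhomocysteine (1.27, SE 0.20), and Shmt2 (1.19, SE 0.24). Without LT-HSC replicate 2 and LT-CML replicate 2, the libraries with Y-linked transcripts, 13 and 5 genes of these lists passed as higher. Some calls were lost in other alternatives. Over all of these the differences ran from 0.16 to 1.06 for Aco1, 0.19 to 0.81 for Idh3g and 0.20 to 0.77 for Sdha. They ran from 0.24 to 0.78 for Ogdh and 0.31 to 0.62 for Mtr, genes named after their values were seen.

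Of 10 readers of CpG methylation, 4 were lower, 0 higher and 6 not past the threshold (median -0.33), where 26.5% of all genes were lower. The 4 include Zbtb4 (limma adjusted p = 0.00344), Zbtb38 (-0.77, SE 0.12) and Mbd5 (-0.67, SE 0.13). Zbtb4 and Mbd5 were low, with KLS- and stem means of 0.22 and 1.47 RPKM for Zbtb4 and 0.84 and 1.92 for Mbd5. Over the alternatives the differences ran from -2.24 to -0.74 for Zbtb4, -1.12 to -0.36 for Mbd5 and -0.86 to -0.69 for Zbtb38. Of 9 writers and cofactors, 3 were higher, where 22.2% of all genes were, namely the chromatin remodeller Hells (1.15), the replication clamp Pcna (0.80) and the histone methyltransferase Ezh2 (0.61), and 2 lower, the imprint-protecting zinc finger gene Zfp57 (-1.91) and Uhrf2 (-0.67). The counts of writers and cofactors, of oxidation and repair genes and of lower readers are near the shares of all genes. The oxidation and repair list, which also holds regulators, had 13 genes tested. Of these, 4 were higher, the myeloid transcription factor gene Cebpa (1.48) and the repair genes Apex1 (0.82), Parp1 (0.62) and Tdg (0.55). The 2 lower were Cxxc5 (-2.13) and Mgea5 (-0.77), which encodes the enzyme that removes O-GlcNAc. Hells, Ezh2, Uhrf2, Apex1, Parp1 and Tdg were named after their values were seen. Over the alternatives the differences ran from 0.23 to 0.91 for Pcna, 0.45 to 0.72 for Ezh2 and 0.94 to 1.37 for Hells. They ran from 0.37 to 0.77 for Parp1, 0.43 to 0.67 for Tdg and 0.45 to 0.93 for Apex1. None of these genes was called in every alternative. Macrophage and monocyte markers, 6 genes including Ly6c2 and Csf1r, summed to 854 and 1102 RPKM in KLS- against 11.3 to 179 in stem libraries, and HSC markers, 6 genes including Hlf and Procr, to 6.91 and 8.17 against 161 to 270; their part in these counts was not tested.

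**Figure D5:**
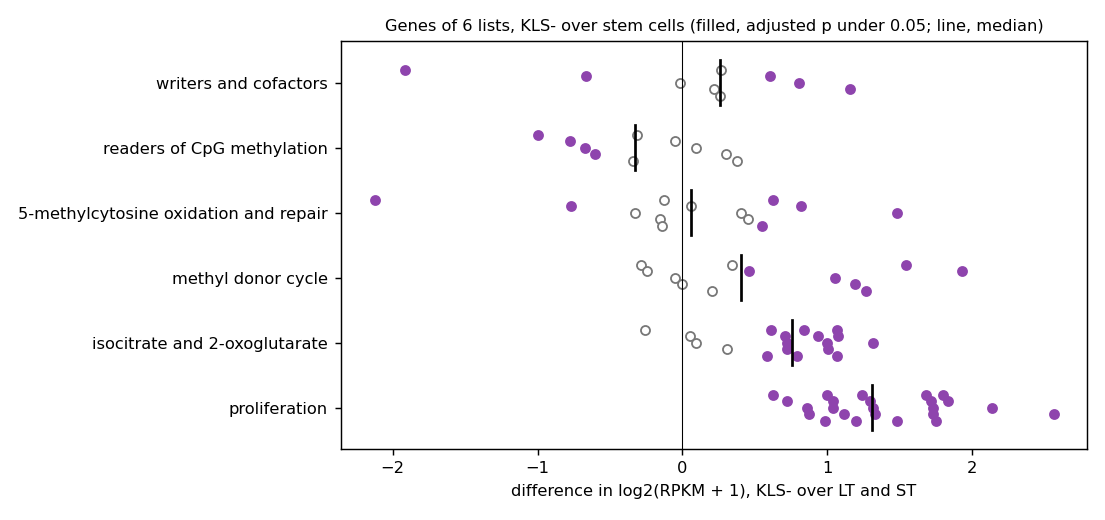
Fitted differences in log2(RPKM + 1), KLS- over LT and ST, for the genes of 6 lists, with filled purple points for an adjusted p under 0.05, open points for the others and a black line at the median of each list. Medians run from -0.33 (readers) to 1.31 (proliferation).

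In CML against normal stem cells, 1 of the 62 pathway genes other than the 8 and the proliferation list was higher and 1 lower, a share close to the 2.34% of all genes called. Zfp57 was at 2.08, 2.65 and 2.02 RPKM in LT-HSC replicates 1 and 2 and ST-HSCs and at 6.66, 7.23 and 4.93 in LT-CML replicates 1 and 2 and ST-CML stem cells, every CML library above every normal one (1.15, SE 0.18, limma adjusted p = 0.0192; 1.24, SE 0.19, adjusted p = 0.0272 in LT cells alone). Mgea5 was at 13.4, 15.9 and 15.8 RPKM in the same normal and 8.67, 8.22 and 9.02 in the same CML libraries (-0.73, SE 0.14, adjusted p = 0.0402). Both calls were lost without LT-HSC replicate 2 and LT-CML replicate 2 together (Zfp57 1.14, adjusted p = 0.123; Mgea5 -0.66, adjusted p = 0.219). The Mgea5 call was also lost when any 1 of the 6 libraries was left out (adjusted p up to 0.153), the Zfp57 call for 4 of the 6 (up to 0.10), and the Zfp57 call in LT cells alone for each of the 4 (up to 0.254). In ST against LT cells, 3 of the 62 were lower and 0 higher, a share close to the 4.87% of all genes called: Mthfd2 (-1.15, SE 0.26), Gadd45g, a growth-arrest gene (-0.98, SE 0.21), and Pcna (-0.64, SE 0.14), with adjusted p of 0.0399, 0.0310 and 0.0343; they passed in 8, 13 and 8 of 17 alternatives.

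Genes whose centred log2(RPKM + 1) followed a member most closely over the 8 libraries, among 10033 genes with a mean of at least 1 RPKM, were found for the 6 members that varied at least 2-fold. For Uhrf1 they were Fen1, Orc1l and Wdhd1 (root mean square difference 0.13 to 0.15), and for Dnmt1 they were Nup155, Polr1b and Aars (0.14 to 0.15). For Tet1 they were Zeb1, Ssh3 and Tnfsf10 (0.09 to 0.10), and for Dnmt3b Scand3, Usp53 and Elmo1 (0.10). For Idh1 they were Spon2, Erp29 and Slc22a4 (0.14 to 0.22), and for Idh2 Cct5, Apex1 and Hspa8 (0.08). These distances are smaller for genes that vary little, and the points share their libraries.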

How the data were processed

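The authors amplified oligo-dT-primed cDNA of sorted bone marrow cells, sequenced it in paired-end mode, mapped it to mm9 (NCBI Build 37) and deposited RPKM, a read density scaled for gene length and library size, in 1 file per library. The annotation, the counting rule and the use of strand are not given in the sources used here. RPKM values are not counts, so log2(RPKM + 1) was fitted with limma 3.58.1 (R 4.3.3; lmFit, then eBayes allowing the variance to follow the mean) for the 12561 genes that summed to over 1 RPKM, and p-values were adjusted by Benjamini-Hochberg and called under 0.05; fold changes of low genes are understated on this scale. Libraries were grouped by their labels. The pooled stem fit had no covariate (3 against 3), the LT and interaction fits used 6 population means (2 residual degrees of freedom), and the KLS- and ST contrasts an additive fit (4 residual degrees of freedom). Exact permutation tests used scipy 1.17.1. The fits were tested on simulated data with 200 changed genes, of a mean above 2 on the log2(RPKM + 1) scale, and no other difference between libraries. A change of 1 was recovered in 94.0% of genes in the pooled stem and KLS- fits. It was recovered in 92.0% in the ST fit and 73.5% in the LT fit. Of the calls at this size, 6.93%, 7.39%, 4.17% and 15.0% were false in the pooled stem, KLS-, ST and LT fits. The real pooled stem fit also leaves the difference between LT and ST cells in its spread, so its recovery may not carry over. Gene positions are those of GENCODE M1. The 8 genes, the lists and the alternatives were chosen with earlier results of these data known. From the lists other than proliferation, at most 6 genes past the threshold with the largest differences in each direction were named, as were Mki67, Top2a, Pcna, the sorting markers and, for members varying at least 2-fold, the 3 nearest genes. Pseudocounts, filters, scalings, other fits and the removal of each library were tried as alternatives. A gene of the list of readers is not reported here by name.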

Additional observations from a re-analysis of the deposited data

How the results depend on the processing

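No paired analysis was possible because the labels give the normal LT libraries no replicate numbers, only ages, and the ST and KLS- populations have 1 library each. Between CML and normal stem cells, LT-CML stem cells and LT-HSCs, ST and LT cells, and in the interaction, 0 of the 8 genes passed under every alternative run. In KLS- progenitors against stem cells 3 to 7 passed when a library was left out, 5 without a filter on low values (lost: Dnmt1, adjusted p = 0.0811; Idh2, 0.0679) and 5 after quantile normalization (lost: Dnmt3a and Idh2); the cause was not tested. Without single libraries the genes called in all numbered 115 to 217 for CML stem cells, 6 to 74 for LT cells, 3178 to 6338 for KLS- cells, 110 to 718 for ST cells and 0 for the interaction.

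Genes called numbered 294 in CML against normal stem cells, but 173 without a filter, 543 with cell type as a covariate and 38 without both libraries with Y-linked transcripts, an alternative chosen after seeing the data. In LT cells 217 became 0 without a filter and 776 in the additive fit, and in ST against LT cells 612 became 127 without a filter. The 3 of the interaction became 0 with a pseudocount of 0.1 or 0.5, after quantile normalization or upper-quartile scaling and without the trend, 59 without a filter and 1 with a mean of at least 1 RPKM.

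Signs turned only for differences that did not pass, and the cause was not tested. When single libraries were left out, the differences between CML and normal stem cells ran from -0.0028 to 0.21 for Tet1, -0.033 to 0.21 for Dnmt3b, -0.087 to 0.14 for Idh1, -0.30 to 0.038 for Idh2 and -0.53 to 0.021 for Uhrf1. In LT cells they ran from -0.10 to 0.74 for Dnmt1, -0.45 to 0.21 for Uhrf1, -0.061 to 0.12 for Idh1 and -0.29 to 0.36 for Idh2, and the additive fit gave Idh1 -0.11 and Idh2 -0.083. For Tet2 in KLS- cells they ran from -0.039 to 0.18, with -0.020 under upper-quartile scaling. In ST against LT cells Dnmt3b ran from -0.074 to 0.27, and without both libraries with Y-linked transcripts Dnmt3b was at -0.066 and Idh2 at -0.068. In the interaction Dnmt3a ran from -0.26 to 0.010, Dnmt3b from -0.32 to 0.075 and Idh2 from -0.46 to 0.20.

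With 2 KLS- libraries, 1 of each genotype, and 2 or 3 libraries a group elsewhere, the number of libraries bounds what these fits can detect, and the counting errors of the 8 genes were at most 4.79%.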
